A study of Mus musculus with 24 samples.

Results

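The enzymes described are 6 adenylyl cyclases (Adcy1, Adcy2, Adcy3, Adcy5, Adcy8 and Adcy9) and 4 cyclic nucleotide phosphodiesterases (Pde1a, Pde4b, Pde4d and Pde10a). They were taken by name as 10 of the 33902 gene rows of a table of single-nucleus RNA sequencing (snRNA-seq) counts. The table held counts for 17 cell types of the ventral hippocampus, summed over the nuclei of each cell type in each library. The tissue came from adult male mice of the inbred strains C57BL/6J (B6) and DBA/2J (D2), 10 to 16 weeks old, and the labels listed no treatment. Each strain had 2 snRNA-seq libraries and 2 single-nucleus ATAC sequencing (snATAC-seq) libraries, and each library pooled nuclei of about 2 animals. Nuclei for snRNA-seq were sorted on the neuronal protein NeuN to enrich neurons, and those for snATAC-seq on a DNA dye alone, without NeuN. Of the 24 samples of the series, the 16 methylation samples were not analysed here. Cell type names are those of the study: 8 excitatory groups (Exc-DG of the dentate gyrus, Exc-CA1-Fras1, Exc-CA1-Galntl6, Exc-CA1-Camk2d, Exc-CA3, Exc-ENT, Exc-Gpc6 and Exc-Cdh12), 3 interneuron groups (Inh-MGE, Inh-CGE and Inh-Lamp5), Cajal-Retzius cells (CR-CR) and 5 non-neuronal types (astrocytes NN-Astro, oligodendrocytes NN-ODC, their precursors NN-OPC, microglia NN-MGC and vascular and leptomeningeal cells NN-VLMC).

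Adenylyl cyclases make cyclic AMP from ATP when stimulatory G proteins, or for some members calcium and calmodulin, act on them. Cyclic AMP opens ion channels and activates protein kinase A and Epac, and in hippocampal neurons this signalling supports synaptic plasticity and memory. Phosphodiesterases end the signal by hydrolysing the cyclic nucleotide, so that the amount of cyclic AMP at a site depends on which cyclase and which phosphodiesterase are there. Adcy1 and Adcy8 are the calcium-stimulated cyclases of neurons, Adcy3 is the cyclase of olfactory and primary cilia, and Adcy2 is stimulated by G protein beta-gamma subunits. Adcy5 is inhibited by calcium and is best known from the striatum, and Adcy9 is the member least sensitive to forskolin. Pde1a is activated by calcium and calmodulin and hydrolyses both cyclic GMP and cyclic AMP. Pde4b and Pde4d are specific for cyclic AMP and are the targets of rolipram, and Pde10a hydrolyses both nucleotides and is abundant in striatal neurons.

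The 10 genes differ in how they start. In the GENCODE vM21 annotation (build GRCm38) Adcy1, Adcy2, Adcy5 and Adcy8 had 1 start of a protein-coding transcript each, whereas Pde4b and Pde4d had 9 each, spread over genes of 519.7 kb (chr4:102087543-102607259, + strand) and 1503.5 kb (chr13:108449948-109953461, + strand). RefSeq promoter windows of GRCm38, which hold 250 bases before to 50 bases after a start, were matched for 9 of the 10 genes and gave 17 windows. These windows did not cover all annotated starts. Pde4d was matched at its first start alone, and the first starts of Pde10a and Pde4b had no window. The counts below therefore describe the matched windows and not the gene families. The 6 cyclase windows held a median of 35 CG dinucleotides and the 11 phosphodiesterase windows a median of 5, beside a median of 7 over 32851 windows. At least 20 CG dinucleotides were found in 5 of 6 cyclase windows, 1 of 11 phosphodiesterase windows and 26.5% of all windows. The full cyclic AMP response element TGACGTCA, searched on both strands, was in 0 of 17 windows and in 1.79% of all windows. Its shorter form TGACG was in 3 of 17 and 20.8%, and GGGCGG was in 7 of 17 and 35.7%. The sequences of 3 starts are shown because they contrast a CG-rich cyclase start, the first start of the gene with the most strain calls, and the Pde4b start that was most open in oligodendrocytes. The label of the last names the type with the highest mean, and that start was open in neurons too. Each is 200 bases on the strand of the gene, 5′ to 3′, from GRCm38, with CG dinucleotides in capitals. For Adcy2 and Pde10a they end just before the outermost start annotated in GENCODE or RefSeq, and for Pde4b just before the GENCODE start within the peak.
Adcy2 start: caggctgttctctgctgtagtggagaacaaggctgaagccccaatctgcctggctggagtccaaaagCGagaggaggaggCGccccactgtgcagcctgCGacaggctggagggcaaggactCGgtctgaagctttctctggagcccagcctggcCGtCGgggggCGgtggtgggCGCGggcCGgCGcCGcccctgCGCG
Pde10a first start: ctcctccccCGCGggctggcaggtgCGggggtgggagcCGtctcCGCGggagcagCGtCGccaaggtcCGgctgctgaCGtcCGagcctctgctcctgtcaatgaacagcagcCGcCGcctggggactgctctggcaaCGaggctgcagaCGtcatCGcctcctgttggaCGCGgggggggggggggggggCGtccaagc
Pde4b oligodendrocyte start: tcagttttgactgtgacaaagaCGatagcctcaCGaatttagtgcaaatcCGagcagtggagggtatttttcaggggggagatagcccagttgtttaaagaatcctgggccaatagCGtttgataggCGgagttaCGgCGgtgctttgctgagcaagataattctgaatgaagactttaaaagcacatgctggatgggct
The Adcy2 stretch (chr13:68999601-68999800, - strand) held 14 CG dinucleotides and one or more copies of GGGCGG, lay outside Adcy2, and overlapped the antisense RNA Gm35161. The Pde10a stretch (chr17:8524987-8525186, + strand) held 19 CG dinucleotides and TGACG and lay outside the gene. The Pde4b stretch (chr4:102254542-102254741, + strand) held 7 CG dinucleotides and none of the 3 motifs, and lay in an intron of the longer Pde4b transcripts.

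Column totals ranged from 139713 counts (CR-CR, D2) to 11352265 counts (Exc-DG, B6), and D2 library 3 had the fewest nuclei (6312, beside 7858 to 8707 in the other 3 libraries). CR-CR held 45 and 46 nuclei in D2. The libraries carry the numbers 2 and 3 in the table, and values are given in that order for each strain. The study's names were checked against marker lists of the cell types: named neuronal, glial and vascular types ranked first for their own list, and of the 3 CA1 groups Exc-CA1-Fras1, Exc-CA1-Galntl6 and Exc-CA1-Camk2d ranked 1, 2 and 4, with NN-ODC at 3 through Pex5l. The 10 genes had between 3313 (Adcy5) and 70569 (Pde1a) counts in D2 and between 4260 (Adcy5) and 98252 (Pde4d) counts in B6 over all cell types.

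Levels across cell types were compared as normalised read counts in CPM (reads scaled to a common library size, with TMM factors over all columns), with mean ± SD over the 4 libraries of both strains. Cell types were named by the study on these same nuclei, so the levels are a description with no test. Pde4b had the widest range of the 10 genes. It stood at 8811 ± 357 CPM in NN-ODC, at 1516 ± 82.2 CPM in NN-OPC and at 28.5 ± 3.87 CPM in Exc-DG, a ratio of 309 between the highest and the lowest mean. The 4 libraries of NN-ODC gave 8397, 8632, 9150 and 9064 CPM, all above every library of NN-OPC, and NN-OPC in turn was above every library of Exc-CA1-Fras1 (720 ± 61.9 CPM). Pde4d, the other cyclic AMP-specific enzyme, had its highest means in the interneurons, with 3110 ± 1140 CPM in Inh-Lamp5, 2161 ± 425 CPM in Inh-CGE and 1624 ± 306 CPM in Inh-MGE. These overlapped from one to the next, and Inh-MGE also overlapped Exc-CA3 (mean 1600 CPM). NN-OPC and Exc-ENT followed, each with a mean of 1486 CPM, and overlapped in the same way. Exc-DG was lowest for Pde4d too, at 112 ± 7.31 CPM, and its 4 libraries were all below those of NN-ODC, the next in order.

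**Figure D1:**
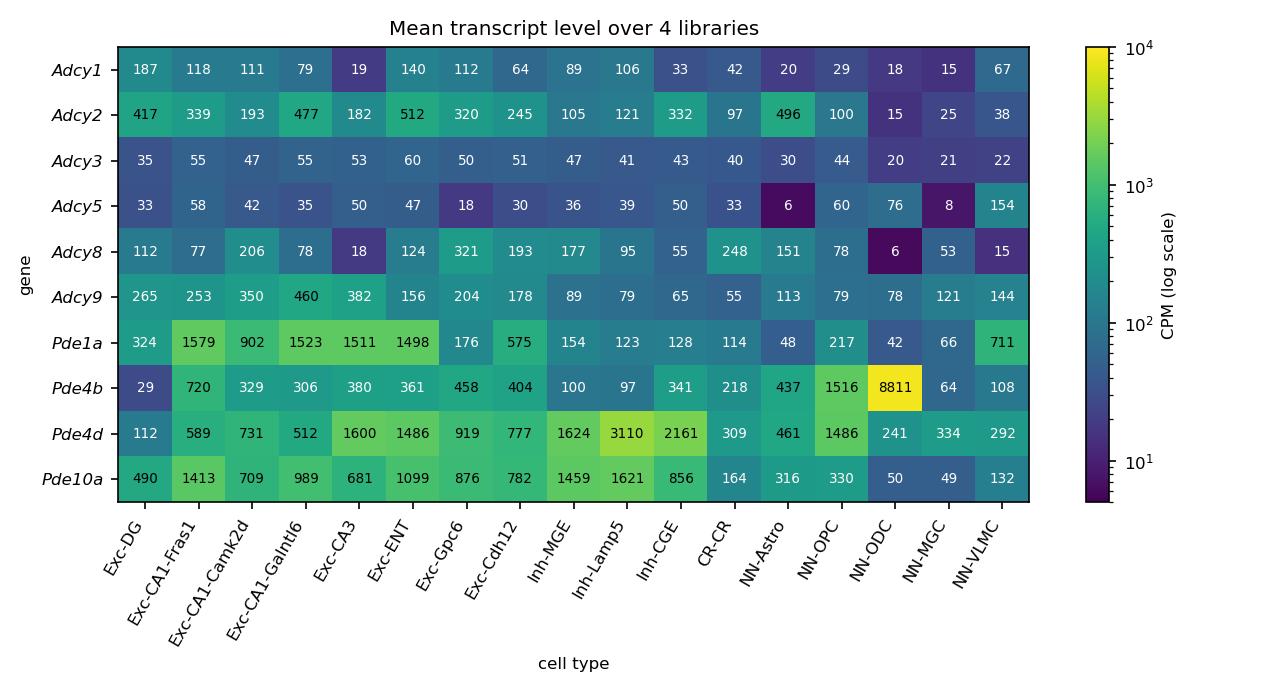
Mean CPM over 4 snRNA-seq libraries of the 10 genes (rows) in 17 cell types (columns), on a logarithmic colour scale. Pde4b in NN-ODC, at 8811 CPM, is the brightest cell, and Pde4b and Pde4d are both at their lowest in Exc-DG.

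Pde1a was highest in the pyramidal neurons. Its means were 1579 ± 66.3 CPM in Exc-CA1-Fras1, 1523 ± 53 CPM in Exc-CA1-Galntl6, 1511 ± 213 CPM in Exc-CA3 and 1498 ± 144 CPM in Exc-ENT. These 4 overlapped from one to the next, and Exc-ENT was above every library of the fifth type, Exc-CA1-Camk2d (902 ± 118 CPM). Pde1a was also at 711 ± 207 CPM in NN-VLMC and was lowest in NN-ODC, at 42.0 ± 14.9 CPM. Pde10a was broad over the excitatory neurons and interneurons, from 490 ± 84.8 CPM in Exc-DG to 1621 ± 732 CPM in Inh-Lamp5, with 164 ± 85.7 CPM in CR-CR, and every library of Exc-DG was above those of NN-OPC (330 ± 35.2 CPM). Its lowest levels were 49.8 ± 13.5 CPM in NN-ODC and 49.3 ± 33.0 CPM in NN-MGC.

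Among the cyclases, Adcy1 was highest in Exc-DG at 187 ± 25.2 CPM, above every library of Exc-ENT (140.5 ± 6.76 CPM), and was lowest in NN-MGC at 15.4 ± 8.98 CPM. Adcy8, the other calcium-stimulated cyclase, was highest in Exc-Gpc6 at 321 ± 51.2 CPM and in CR-CR at 248 ± 120 CPM, and was lowest in NN-ODC at 6.09 ± 4.14 CPM. Exc-CA3 ranked 15 of 17 for both calcium-stimulated cyclases, with 18.8 ± 2.44 CPM of Adcy1. Adcy2 was highest in Exc-ENT (512 ± 62.1 CPM), with NN-Astro beside it at 496 ± 45.9 CPM, and all 16 neighbours in its order overlapped. Adcy3 had the narrowest range, from 60.1 ± 5.02 CPM in Exc-ENT to 19.8 ± 4.31 CPM in NN-ODC, a ratio of 3.04. Adcy5 was highest outside the neurons, at 154 ± 69.5 CPM in NN-VLMC and 75.7 ± 22.1 CPM in NN-ODC, and was lowest in NN-Astro at 6.22 ± 1.14 CPM. Adcy9 was highest in Exc-CA1-Galntl6 (460.5 ± 52.2 CPM), Exc-CA3 (382 ± 36.4 CPM) and Exc-CA1-Camk2d (350 ± 33.9 CPM), and every library of the last was above those of Exc-DG (265 ± 35.2 CPM). Without TMM scaling 8 of the 10 genes kept their highest type, while Adcy8 was then highest in CR-CR (325 CPM, beside 292 CPM in Exc-Gpc6) and Pde1a in Exc-ENT (1411 CPM, beside 1391 CPM in Exc-CA1-Fras1).

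Levels of different genes were compared only per length, as mean CPM per kb of gene span, since nuclear counts include intronic reads. Adcy9 had the highest cyclase level per kb in every excitatory type except Exc-ENT, among them Exc-CA1-Galntl6 (3.46 CPM per kb), Exc-CA3 (2.87 CPM per kb) and Exc-DG (1.99 CPM per kb). It also led in NN-VLMC (1.08 CPM per kb), NN-MGC (0.908 CPM per kb), NN-OPC (0.595 CPM per kb) and NN-ODC (0.587 CPM per kb). Adcy2 led in NN-Astro (1.31 CPM per kb), Exc-ENT (1.35 CPM per kb) and Inh-CGE (0.875 CPM per kb). Of the phosphodiesterases, Pde1a led per kb in every excitatory type except Exc-Gpc6, among them Exc-CA1-Fras1 (5.35 CPM per kb) and Exc-CA3 (5.12 CPM per kb). It also led in NN-VLMC (2.41 CPM per kb) and NN-MGC (0.223 CPM per kb). Pde10a led in all 3 interneuron groups, with 3.51 CPM per kb in Inh-Lamp5, and in Exc-Gpc6 (1.90 CPM per kb). Pde4b led in NN-ODC, NN-OPC (2.92 CPM per kb), NN-Astro (0.841 CPM per kb) and CR-CR (0.419 CPM per kb).

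Other genes with the most similar pattern were sought by Pearson's r of mean log2(CPM + 1) over the 17 cell types, among 14875 genes with at least 10 CPM in a cell type. These are descriptions over points that share libraries. Pde4b was most like Jam3 (0.84), Ankrd28 (0.83) and Txndc16 (0.82), Pde4d was most like Ache (0.84), A430010J10Rik (0.83) and Tram1l1 (0.82), and Pde10a was most like Gm43192 (0.96), Gm14410 (0.95) and Mapk10 (0.95). For Pde1a the closest were Usp46os2 (0.89), Chrd (0.89) and Unc13b (0.88). Among the cyclases Adcy1 was closest to Btrc (0.85), Klhdc1 (0.84) and Pak6 (0.82), Adcy2 to Gm21954 (0.94), Dclk1 (0.94) and Gabrb1 (0.93), and Adcy3 to Agbl4 (0.96), Pbx4 (0.95) and 4930405A21Rik (0.94). Adcy5 was closest to Gm26559 (0.92), Cntd1 (0.86) and Tpst1 (0.82), and Adcy9 to Icam5 (0.92), AI115009 (0.91) and Chil5 (0.91). Adcy8 was closest to Gm21798 (0.99), Gsg1l (0.77) and Gm48420 (0.77). Gm21798 overlaps Adcy8 on the opposite strand, and the sources used here do not state whether counting used strand, so its reads and those of Adcy8 may not be separable.

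The strains were then compared in each cell type, to ask how transcript levels in one kind of cell differ between B6 and D2. Of the 170 pairs of gene and cell type, 167 were tested, and 48 were called at an adjusted p under 0.05 by edgeR's quasi-likelihood test with Benjamini-Hochberg adjustment over all genes of the cell type. That is 28.7% of the tests, beside 14.6% of the 205592 tests over all genes and cell types. Of the 48 calls, 41 were lower in D2 (24.6% of the tests, beside 8.40% over all genes) and 7 were higher (4.19%, beside 6.24%). The log2 difference (D2 minus B6) was below 0 in 130 of 167 tests, with a median of -0.22 beside 0.01 over all genes. Without D2 library 3, which had the fewest nuclei, fewer pairs were called, and fewer of all genes were called in most cell types. With 2 libraries per strain, each a separate tube of pooled animals, the p-values measure the spread between these libraries, and an exact permutation test of a single gene could not go below 0.333. The 2 libraries of B6 and the 2 of D2 did not overlap in any of the 48 called pairs. They did not overlap in 122 of all 170 pairs. The same share was not computed over all genes, so this count is a description and does not set these genes apart from others.

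**Figure D2:**
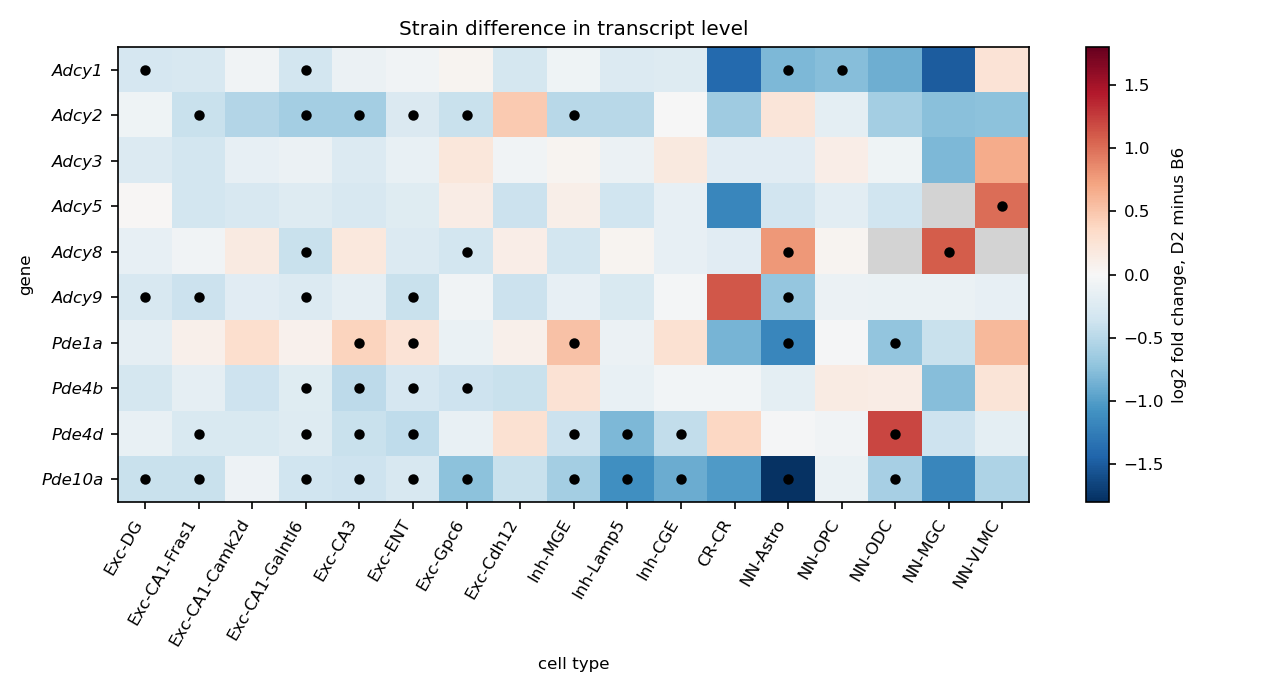
Log2 difference, D2 minus B6, of the 10 genes (rows) in 17 cell types (columns) from snRNA-seq. Dots mark an adjusted p under 0.05 and grey cells were not tested; the Pde10a row is below 0 in all 17 cell types.

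By cell type, the most calls were in Exc-CA1-Galntl6 (7 of 10 genes, beside 26.0% of all genes there) and Exc-ENT (6 of 10, beside 18.6%). Exc-CA3 had 5 (beside 21.9%), NN-Astro 5 (18.7%), Exc-CA1-Fras1 4 (20.2%), Exc-Gpc6 4 (12.5%) and Inh-MGE 4 (11.8%). Exc-DG, the most deeply sequenced type, had 3 of 10, beside 25.6% of all genes. NN-ODC had 3 of 9 tested (14.2%), Inh-CGE 2 (8.13%), Inh-Lamp5 2 (8.43%), NN-OPC 1 (11.3%), NN-MGC 1 of 9 (8.13%) and NN-VLMC 1 of 9 (5.82%). No gene was called by edgeR in Exc-CA1-Camk2d (9.40% of all genes), Exc-Cdh12 (3.30%) or CR-CR (2.20%), where 4, 4 and 5 had an unadjusted p under 0.05 and DESeq2 called 0 in each.

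Pde10a was called lower in D2 in 11 of 17 cell types, and its difference was below 0 in all 17, from -0.09 to -1.78 with a median of -0.55. Of the 5034 genes tested in all 17 types, 3.14% were called lower in at least 11. In NN-Astro the B6 libraries had 528 and 450.3 CPM and the D2 libraries 141 and 144 CPM. Both D2 libraries were far below either B6 library, with a log2 difference of -1.78 (SE 0.10, edgeR adjusted p = 4.77e-13). In Inh-Lamp5 the values were 2351 and 2150 CPM in B6 and 1004 and 979 CPM in D2, a difference of -1.11 (SE 0.11, edgeR adjusted p = 2.72e-12). The groups did not overlap in either type.

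The other interneurons and Exc-Gpc6 went the same way for Pde10a. Inh-CGE had 1014 and 1227 CPM in B6 and 584 and 600 CPM in D2 (-0.90, SE 0.12, edgeR adjusted p = 5.34e-05). Exc-Gpc6 had 978 and 1241 CPM in B6 and 688 and 599 CPM in D2 (-0.74, SE 0.097, edgeR adjusted p = 1.08e-06), and Inh-MGE had 1752 and 1804 CPM beside 1195 and 1085 CPM (-0.60, edgeR adjusted p = 0.000572). In the called types of the dentate gyrus and the pyramidal neurons the difference was smaller, from -0.29 in Exc-ENT to -0.41 in Exc-DG. Exc-DG had 548 and 574 CPM in B6 and 438 and 398 CPM in D2. The pyramidal group Exc-CA1-Camk2d was not called, and its difference stood above the mean of the other types by 0.59. Of the 11 calls 8 were kept under every alternative. The exceptions were Exc-ENT, Inh-CGE and NN-ODC. In Exc-ENT the call was lost without D2 library 3, where the difference was -0.17. In Inh-CGE it was lost without D2 library 2 and without D2 library 3, though the difference there was still -0.84 and -0.95. No gene at all was called in Inh-CGE in either of these runs, so the loss was not particular to Pde10a. In NN-ODC it was lost without B6 library 2 (-0.51), without D2 library 3 (-0.41) and by DESeq2 (adjusted p = 0.593). The genes Gm15425 and Gm15426 overlap Pde10a on the opposite strand and were counted only in D2, with 2514 counts or 4.34% of the Pde10a counts of D2 (0 to 8.11% by cell type).

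**Figure D3:**
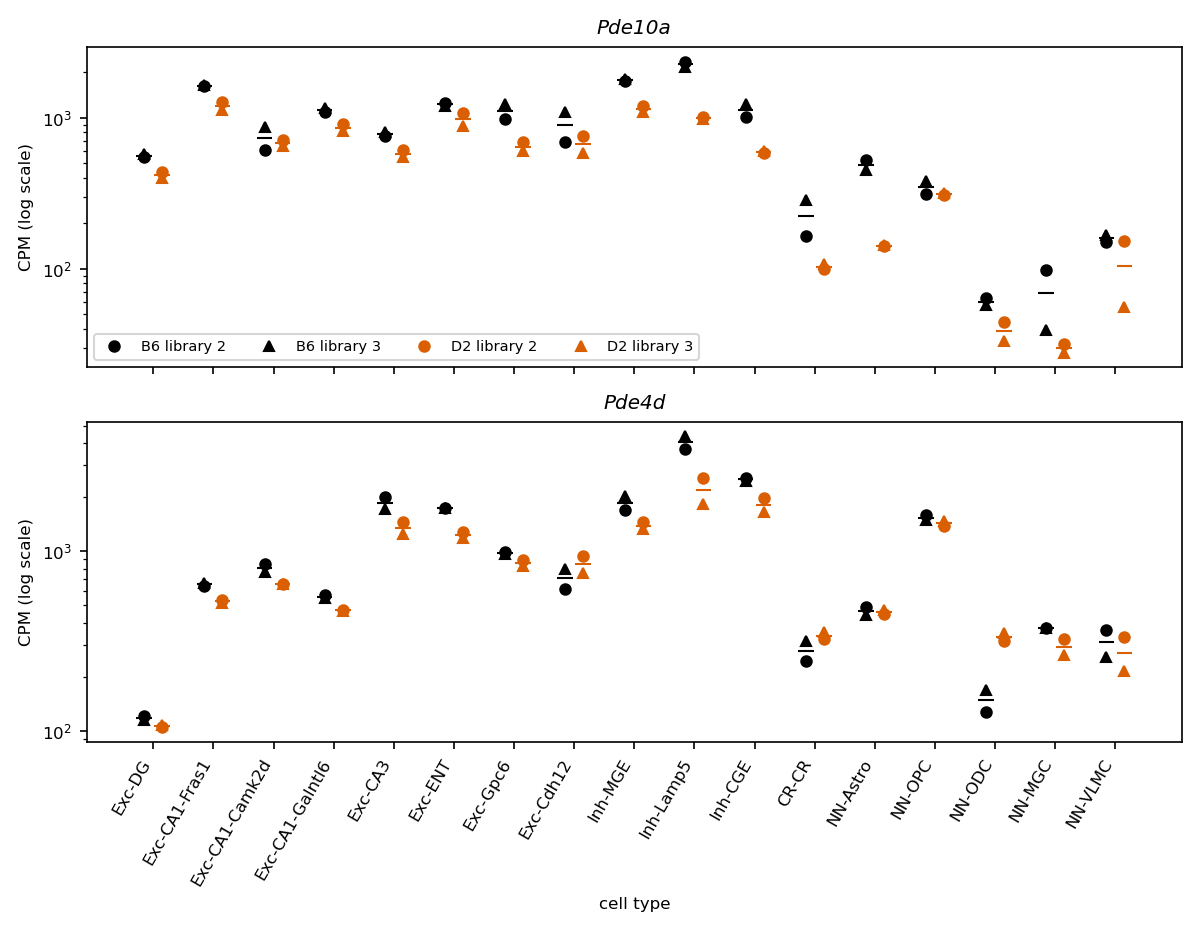
CPM of Pde10a and Pde4d in each snRNA-seq library by cell type, on a logarithmic axis; points are libraries and bars are strain means. The D2 points of Pde10a in NN-Astro (141 and 144 CPM) lie below the B6 points (528 and 450.3 CPM), and those of Pde4d in NN-ODC (317 and 349.5 CPM) lie above them (127 and 169 CPM).

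Pde4d was called in 8 cell types and moved both ways, lower in 7 and higher in 1. The higher one was NN-ODC, with 127 and 169 CPM in B6 and 317 and 349.5 CPM in D2 (1.20, SE 0.14, edgeR adjusted p = 8.95e-07), so that both D2 libraries were well above both B6 libraries. In Inh-Lamp5, the type with the most Pde4d, B6 had 3704 and 4365 CPM and D2 2544 and 1826 CPM (-0.81, SE 0.11, edgeR adjusted p = 8.75e-08). DESeq2 did not call this pair (adjusted p = 0.0652). Exc-ENT had 1744 and 1735 CPM in B6 and 1281 and 1183 CPM in D2 (-0.45, SE 0.067, edgeR adjusted p = 2.86e-05). Exc-CA3 had 1998 and 1708 CPM beside 1452 and 1243 CPM (-0.40, edgeR adjusted p = 0.00331). The calls in Exc-CA3, Exc-ENT and NN-ODC were kept under every alternative. Those in Inh-CGE (-0.45), Inh-MGE (-0.38), Exc-CA1-Fras1 (-0.27) and Exc-CA1-Galntl6 (-0.23) were each lost without at least 1 library. In Inh-CGE the difference was then -0.43 without B6 library 2, -0.54 without D2 library 2 and -0.36 without D2 library 3. No gene at all was called in Inh-CGE without D2 library 2 or without D2 library 3. In Inh-MGE it was -0.27 without B6 library 3, -0.44 without D2 library 2 and -0.33 without D2 library 3. Exc-CA1-Fras1 had -0.25 without B6 library 3 and -0.25 without D2 library 3, and Exc-CA1-Galntl6 had -0.22 without D2 library 2. Calls in both directions were found for 6.32% of the 5034 genes tested in all 17 types, and Pde1a was among them too.

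Pde4b, in contrast, was not called in NN-ODC, where its level was highest. It was called lower in 4 excitatory types, and the largest of these was Exc-CA3, with 436 and 461 CPM in B6 and 331 and 292 CPM in D2 (-0.47, SE 0.081, edgeR adjusted p = 0.000808). That call was kept under every alternative. The others were Exc-Gpc6 (-0.38), Exc-ENT (-0.30) and Exc-CA1-Galntl6 (-0.22), and without D2 library 3 their adjusted p was 0.336, 0.157 and 0.370. Without B6 library 3 it was 0.342 in Exc-Gpc6 and 0.0790 in Exc-ENT. In the same 4 types the oligodendrocyte gene Mbp, which encodes a myelin protein, was also lower in D2. Its values in B6 and D2 were 74.2 and 72.8 CPM beside 53.1 and 48.5 CPM in Exc-CA3 (-0.47), and 121 and 141 CPM beside 80.2 and 69.2 CPM in Exc-Gpc6 (-0.76). Exc-ENT had 68.2 and 68.6 CPM of Mbp beside 39.6 and 40.4 CPM (-0.73), and Exc-CA1-Galntl6 101 and 105 CPM beside 77.1 and 64.7 CPM (-0.52). The part of oligodendrocyte RNA in the Pde4b result was not tested.

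Pde1a was called higher in 3 neuronal types and lower in 2 glial types. In Exc-CA3 it was at 1274 and 1387 CPM in B6 and at 1680 and 1702 CPM in D2 (0.41, SE 0.068, edgeR adjusted p = 0.000647). Inh-MGE had 135 and 121 CPM beside 174 and 185 CPM (0.52, SE 0.11, edgeR adjusted p = 0.00465), and Exc-ENT had 1392 and 1398 CPM beside 1499 and 1702 CPM (0.24, edgeR adjusted p = 0.0225). The D2 libraries were above the B6 libraries in all 3. In NN-Astro the order was turned, with 60.2 and 72.4 CPM in B6 and 39.3 and 19.9 CPM in D2 (-1.17, SE 0.19, edgeR adjusted p = 4.79e-05), and in NN-ODC it was 41.8 and 63.0 CPM beside 29.6 and 33.6 CPM (-0.71, SE 0.23, edgeR adjusted p = 0.0368). The calls in Exc-CA3 and NN-Astro were kept under every alternative. Exc-ENT gave 0.351 without D2 library 3, Inh-MGE gave 0.0610 without B6 library 3, and NN-ODC gave 0.414 without B6 library 3, 0.145 without D2 library 2 and 0.0645 without D2 library 3.

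Of the cyclases, Adcy2 had the most calls, all 6 lower in D2 and all in neurons. Exc-CA1-Galntl6 had 565 and 597 CPM in B6 and 386 and 360 CPM in D2 (-0.62, SE 0.060, edgeR adjusted p = 1.88e-07). Exc-CA3 had 210 and 237 CPM beside 150 and 131 CPM (-0.61, SE 0.094, edgeR adjusted p = 0.000351), and Exc-CA1-Fras1 had 373 and 408 CPM beside 291 and 283 CPM (-0.40, edgeR adjusted p = 0.00114). These 3 calls were kept under every alternative. Inh-MGE (-0.50), Exc-Gpc6 (-0.39) and Exc-ENT (-0.26) were called as well, and their adjusted p was 0.0538 in Inh-MGE without D2 library 2 and 0.256 in Exc-Gpc6 and 0.0753 in Exc-ENT without D2 library 3. Exc-ENT was also lost without B6 library 2 (0.0516) and without D2 library 2 (0.0546). In NN-Astro, which had nearly as much Adcy2 as Exc-ENT, the values were 450 and 467 CPM in B6 and 518 and 549 CPM in D2, higher in both D2 libraries but not called. The antisense RNA Gm35161 overlaps the start of Adcy2 and had 421 counts in the B6 libraries beside 153 in those of D2. It was lower in D2 in Exc-CA1-Fras1 (-1.31), Exc-Gpc6 (-1.95) and Exc-CA1-Galntl6 (-2.05). Its part in the Adcy2 result was not tested.

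Adcy9 was called lower in 5 cell types. Exc-ENT had 179 and 180 CPM in B6 and 133 and 131 CPM in D2 (-0.40, edgeR adjusted p = 0.00355), and NN-Astro had 159 and 120 CPM beside 81.8 and 89.8 CPM (-0.70, SE 0.13, edgeR adjusted p = 0.000181). Both were kept under every alternative. The calls in Exc-CA1-Fras1 (-0.38), Exc-DG (-0.29) and Exc-CA1-Galntl6 (-0.25) were lost without D2 library 3 (adjusted p = 0.0637, 0.159 and 0.104). Adcy1 was called lower in Exc-DG, its highest type, with 207 and 208 CPM in B6 and 175 and 157 CPM in D2 (-0.31, SE 0.075, edgeR adjusted p = 0.00704). It was also called in NN-Astro (-0.81), NN-OPC (-0.76) and Exc-CA1-Galntl6 (-0.34). None of the 4 Adcy1 calls was kept under every alternative: without D2 library 3 the adjusted p was 0.113 in Exc-DG and 0.0884 in Exc-CA1-Galntl6, without B6 library 3 it was 0.0694 in NN-Astro and 0.262 in NN-OPC, and without D2 library 2 it was 0.406 in NN-OPC and 0.0702 in Exc-CA1-Galntl6.

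Adcy8 was called in 4 types, higher in 2 glial types and lower in 2 excitatory types. It was higher in NN-Astro, with 110 and 112 CPM in B6 and 174 and 209 CPM in D2 (0.79, SE 0.11, edgeR adjusted p = 7.14e-06), a call kept under every alternative. In NN-MGC it was at 34.8 and 33.0 CPM beside 74.6 and 71.0 CPM (1.08, SE 0.26, edgeR adjusted p = 0.00982), from 23, 31, 40 and 51 counts, and the adjusted p was 0.0568 without B6 library 3 and 0.572 by DESeq2. In Exc-Gpc6 and Exc-CA1-Galntl6 it was called lower, by -0.33 and -0.39. The adjusted p in Exc-Gpc6 was 0.214 without B6 library 3, 0.175 without D2 library 2 and 0.170 without D2 library 3, and in Exc-CA1-Galntl6 it was 0.153 without D2 library 3. The overlapping gene Gm21798 was called lower in 6 types, among them Exc-Gpc6 (-0.65) and Exc-CA1-Galntl6 (-0.33), and higher in NN-MGC (0.84), and its part in the Adcy8 counts was not tested. Adcy5 was called in 1 type, NN-VLMC, where it was highest: 73.1 and 125 CPM in B6 and 232 and 185 CPM in D2 (1.01, SE 0.26, edgeR adjusted p = 0.0109), from 21, 74, 157 and 70 counts. The adjusted p was 0.233 without B6 library 2, 0.125 without D2 library 2 and 0.518 by DESeq2. Adcy3 was not called in any of 17 types by edgeR, with 1 unadjusted p under 0.05, and DESeq2 called 0 with 0 unadjusted.

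Markers of other cell types also differed between the strains, in neurons and in glia. In the 12 neuronal types 6 to 15 glial and vascular markers could be tested, of which 0 to 5 were lower and 0 to 2 were higher in D2. Mbp was lower in both D2 libraries than in either B6 library in 11 of the 12, and was called lower in 8 of them. The vascular gene Dcn was higher in Exc-CA1-Fras1 (0.70), Exc-CA1-Galntl6 (0.91) and Exc-CA3 (0.92). Its mean was 340 CPM in NN-VLMC and 253 CPM in Exc-CA1-Camk2d, so Dcn was not particular to vascular cells here. In NN-Astro 9 of 30 tested markers of other types (36 listed, 0 of them without a count) were lower in D2 and 2 were higher, the CA3 marker Grik4 (0.66) and the precursor marker Vcan (0.41). The lower ones included the oligodendrocyte genes Mbp (-1.14) and Mog, and the neuronal genes Reln (-1.82), Ndnf (-1.60) and Slc17a7 (-0.48). The sum of the Cajal-Retzius markers was 41.9 and 26.9 CPM in B6 and 11.6 and 14.2 CPM in D2, and that of the interneuron markers was 18.9 and 24.3 CPM beside 22.5 and 26.4 CPM. The astrocyte genes Aqp4, Gja1 and Slc1a2 were not called. In NN-ODC 3 of 26 tested markers of other types were lower (Pex5l, Adarb2 and Slc1a2) and 0 were higher, while its own Mog was higher by 0.43. Pex5l, listed for CA1, was itself at 2176 CPM in NN-ODC, beside its highest mean of 2470 CPM in Exc-CA1-Fras1. In NN-MGC 4 of 16 were lower, with its own P2ry12 higher (0.53). In NN-OPC 3 of 23 were lower and 4 higher, and in NN-VLMC 2 of 17 were lower, with its own Dcn higher (0.88) and Flt1 lower (-0.95). The part of these shifts in the results on the 10 genes was not tested.

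Whether the strain difference itself varied among the 17 cell types was tested with 1 model over all columns, with a term for each library. By edgeR's quasi-likelihood test 9 of the 10 genes varied, beside 16.6% of the 18599 genes tested. The smallest adjusted p-values were 2.68e-11 for Pde4d, 5.53e-09 for Pde10a, 6.67e-07 for Pde1a and 3.22e-06 for Adcy2. The others were 0.000805 for Adcy8, 0.00267 for Adcy5, 0.00877 for Adcy1, 0.0113 for Pde4b and 0.0331 for Adcy9, and Adcy3 had 0.282. Without D2 library 3 the genes still called were Pde4d, Pde10a, Pde1a, Adcy2 and Adcy5. In that run and without D2 library 2, fewer of the 10 genes and also fewer of all genes tested were called.

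Each cell type was also set against the mean difference of the other 16. Of the 170 deviations 13 were called, in 8 cell types. Over all 18599 genes the called share ran from 0.204% in Exc-Cdh12 to 4.58% in NN-Astro among the 17 cell types. In NN-Astro, where 4.58% of genes stood apart, 5 of the 10 did: Pde10a was further below 0 by 1.18 (SE 0.16, edgeR adjusted p = 3.44e-08) and Pde1a by 1.15 (SE 0.20, edgeR adjusted p = 3.68e-05), and Adcy9 by 0.54, whereas Adcy8 stood above the others by 0.92 (SE 0.19, edgeR adjusted p = 0.000339) and Adcy2 by 0.65 (SE 0.13, edgeR adjusted p = 0.000182). In NN-ODC (3.61% of genes) Pde4d stood above the other types by 1.43 (SE 0.15, edgeR adjusted p = 9.50e-12). In Inh-Lamp5 (0.495%) Pde4d stood below them, with a deviation of -0.74 (SE 0.12, edgeR adjusted p = 0.000106). Pde1a stood above the others in Inh-MGE (0.62; 0.559% of genes), Exc-CA3 (0.48; 1.20%) and NN-VLMC (0.67; 1.52%). In NN-VLMC Adcy5 stood above them by 1.32 (SE 0.21, edgeR adjusted p = 1.63e-05), in Exc-Cdh12 (0.204% of genes) Adcy2 by 0.89 (SE 0.16, edgeR adjusted p = 0.00175), and in Exc-CA1-Camk2d (0.333%) Pde10a by 0.59 (edgeR adjusted p = 0.0343).

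The rest of the pathway was described through a list of 74 other genes of cyclic AMP and cyclic GMP signalling, of which 68 could be tested. Of their 961 tests 103 were called (10.7%), 78 lower and 25 higher in D2, beside 14.6% over all genes. DESeq2 called 57. The calls lay mostly in the remaining phosphodiesterases (47 of 240 tests, 39 lower and 8 higher) and cyclases (15 of 39, 14 lower and 1 higher). Guanylyl cyclases had 7 of 61 called (6 lower and 1 higher) and Epac, Popeye and cyclic GMP effectors 9 of 68 (all lower). Protein kinase A subunits and inhibitors had 4 of 143 called, G protein alpha subunits 5 of 112, the CREB family 3 of 98, and the A-kinase anchoring proteins, which tether the kinase, 13 of 200 (10 higher and 3 lower).

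The 6 of these genes called in the most cell types were Pde2a, Adcy10, Pde6h, Akap12, Prkg1 and Pde1c. Pde2a, a phosphodiesterase activated by cyclic GMP, was called lower in 17 of 17 types, with a median difference of -2.46. In Exc-DG it was at 115 and 114 CPM in B6 and at 23.8 and 20.5 CPM in D2. A second annotated gene, Gm45837, covers 100% of Pde2a on the same strand and had 0 counts in B6 beside 21 in D2, while Pde2a had 14051 and 2373. The part of the shared annotation in this result was not tested. Adcy10, the soluble cyclase activated by bicarbonate, was called lower in 13 of 15 types with a median of -1.04, for example from 108 and 103 CPM in B6 to 29.7 and 28.3 CPM in D2 in Exc-DG. It overlaps Gm18186 (0 and 6 counts in B6 and D2) and Gm38325 (26 and 0). Pde6h, a small subunit of the photoreceptor enzyme, was called lower in 7 of 8 types. Its eighth type, NN-MGC, had 31.7 and 30.9 CPM in B6 and 57.8 and 54.3 CPM in D2 (0.82, not called). Arhgdib covers 40.1% of Pde6h on the opposite strand and had 1889 B6 counts beside 187 D2 counts, and its part in the Pde6h result was not tested.

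Akap12, a scaffold for protein kinase A, was called higher in 6 of 16 types, all neuronal, from 0.43 in Exc-CA3 to 0.55 in Inh-MGE. Prkg1, the cyclic GMP-dependent kinase, was called lower in 6 of 17 types. In Exc-ENT it was at 519 and 487 CPM in B6 and at 289 and 299 CPM in D2 (-0.73, SE 0.081, edgeR adjusted p = 4.33e-07), and in Exc-DG at 1591 and 1459 CPM beside 1333 and 1220 CPM (-0.24). Pde1c, a calcium-activated relative of Pde1a, was called lower in 5 of 17 types. Among them was Exc-CA3, at 27.1 and 23.4 CPM beside 13.6 and 12.3 CPM (-0.90), the type where Pde1a was higher in D2.

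**Figure D4:**
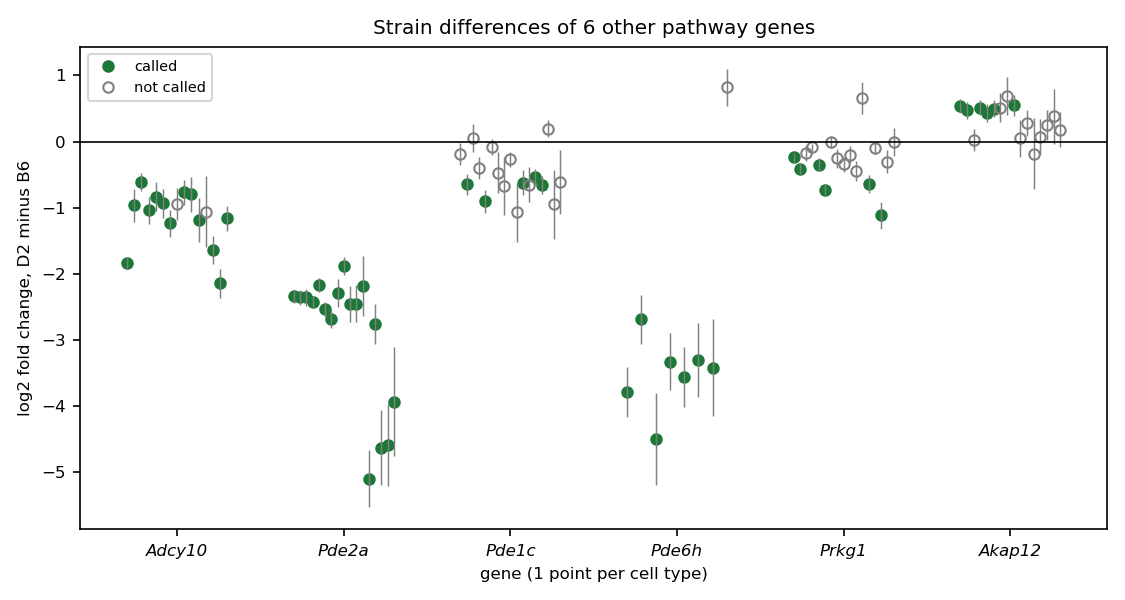
Log2 difference, D2 minus B6, ± SE of 6 other genes of the pathway in each cell type where they were tested; filled points are called at an adjusted p under 0.05. Pde2a lies between -5.11 (NN-Astro) and -1.89 (Inh-MGE) and is called in all 17 types.

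Chromatin accessibility was read from snATAC-seq counts per peak, summed like the transcripts over 15 cell types (CR-CR and NN-VLMC were not among them). A promoter peak was one within 1000 bases of a start of a protein-coding transcript, and the 10 genes had 27. Accessibility of the main start followed the transcript level across cell types for most of the genes. Over the 15 cell types, Pearson's r of the log2 values was 0.94 for the main Pde1a start, 0.92 for Adcy2, 0.92 for the first start of Pde10a, 0.84 for Adcy8, 0.81 for Adcy5, 0.79 for Adcy3 and 0.77 for Adcy1. These are descriptions over cell types that share libraries. Adcy9 was the exception among the cyclases, with r of -0.11. Its promoter peak varied little, from 30.7 ± 4.67 CPM in NN-OPC to 56.0 ± 6.41 CPM in Exc-Gpc6. Over the same 15 types its mean transcript level ran from 65.4 CPM in Inh-CGE to 460.5 CPM in Exc-CA1-Galntl6.

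For Pde4b and Pde4d the open start depended on the cell type. The first Pde4b start was most open in Exc-Gpc6 (34.4 ± 3.89 CPM) and was at 8.55 ± 3.81 CPM in NN-ODC, and its r with the transcript level was -0.02. The start 167.3 kb further on, whose upstream sequence is given above, had its highest mean in NN-ODC (18.1 ± 2.16 CPM, 40 counts), with r of 0.70. NN-OPC had 14.6 ± 6.71 CPM from 31 counts. This start was not particular to these types and was open in neurons too. Exc-CA1-Galntl6 had 871 counts there and Inh-CGE 155, from deeper columns, and the lowest mean was 3.20 CPM in NN-MGC. Another peak, at 483.0 kb, was at 16.5 ± 3.26 CPM in NN-Astro (51 counts) and 8.97 ± 3.37 CPM in NN-MGC (22 counts), while NN-ODC had 1.44 CPM from 3 counts and the neurons 0.75 to 1.90 CPM. For Pde4d, the peak 206.7 kb from its first start was highest in NN-ODC (12.1 ± 1.85 CPM, 27 counts), followed by Inh-CGE (6.78 ± 2.06 CPM, 72 counts), Inh-MGE (4.22 ± 0.33 CPM, 82 counts) and Inh-Lamp5 (3.87 ± 2.13 CPM, 26 counts). All 8 excitatory types were between 0.26 and 0.61 CPM, and NN-Astro had 0 counts. The glial values rest on few counts, so neighbouring glial types are not separated by them. The centre of this Pde4d peak is shown because it was the promoter peak shared by oligodendrocytes and interneurons.
Pde4d oligodendrocyte and interneuron peak: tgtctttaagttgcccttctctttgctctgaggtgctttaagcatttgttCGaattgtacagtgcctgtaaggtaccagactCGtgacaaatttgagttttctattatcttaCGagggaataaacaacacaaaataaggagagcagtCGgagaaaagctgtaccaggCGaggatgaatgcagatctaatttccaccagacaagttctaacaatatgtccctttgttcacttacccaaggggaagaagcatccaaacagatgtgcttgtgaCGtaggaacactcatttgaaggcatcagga
These 300 bases (chr13:108860684-108860983, + strand, GRCm38) lie in an exon of a non-coding Pde4d transcript in GENCODE vM21. They hold 6 CG dinucleotides, in capitals, where 76.2% of 300776 peak centres of the same length had fewer, and a match to TGACG.

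**Figure D5:**
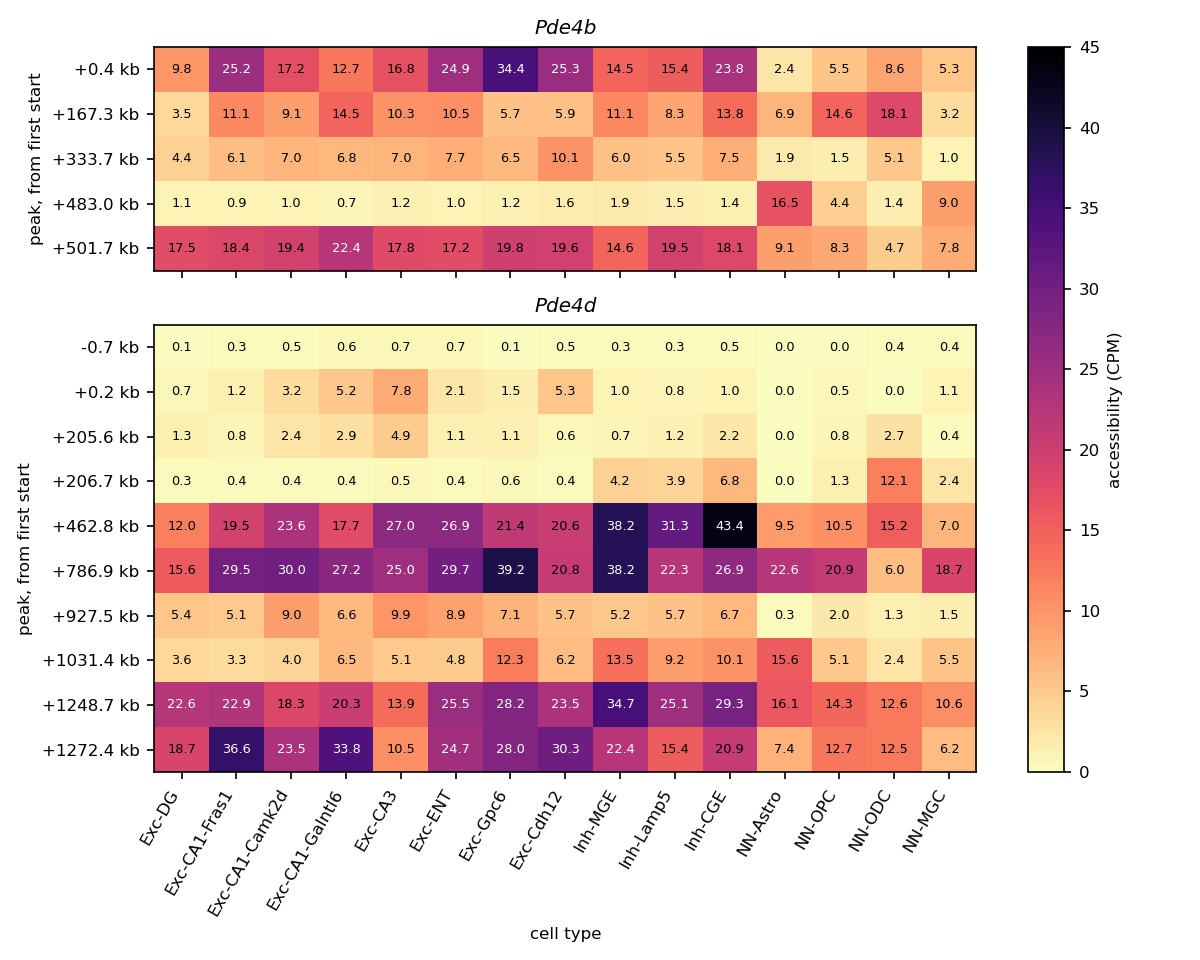
Mean accessibility (CPM over 4 snATAC-seq libraries) of the 5 Pde4b and 10 Pde4d promoter peaks (rows, by distance in kb from the first start) in 15 cell types (columns). Darker cells are more accessible; the Pde4b peak at 483.0 kb is highest in NN-Astro (16.5 CPM) and the Pde4d peak at 206.7 kb in NN-ODC (12.1 CPM).

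Few promoter peaks of the 10 genes were called between the strains. Of 347 tests 2 were called by edgeR (0.576%), beside 2.73% of 2706603 tests over all peaks, and 29 had an unadjusted p under 0.05. A Pde4b peak 501.7 kb from the first start (chr4:102588500-102590068, partly exonic) had 15.6 and 15.8 CPM in B6 and 20.2 and 19.5 CPM in D2 in Exc-CA3 (0.33, SE 0.099, edgeR adjusted p = 0.0272), where 5.03% of peaks were called and the Pde4b transcript was lower in D2. A Pde4d peak at its first start (chr13:108653877-108654794) had 3.75 and 4.13 CPM in B6 and 7.18 and 5.89 CPM in D2 in Exc-CA1-Galntl6 (0.71, SE 0.19, edgeR adjusted p = 0.00511), where 5.26% of peaks were called. DESeq2 called 0 of the 2, and so did edgeR without B6 library 2, where 23 had an unadjusted p under 0.05. The Pde4b call was lost without any 1 of the 4 libraries (adjusted p = 0.173 to 0.369), and the Pde4d call without B6 library 2 (0.110) or D2 library 2 (0.185). Neither of the 2 belonged to Pde10a, the gene with the most transcript calls. The NN-Astro, NN-ODC and NN-OPC columns were shallow in this assay, with 0.198%, 0.0878% and 0.0315% of all peaks called, so a strain difference of the size of the transcript differences there may not have been detectable at this depth.

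Within the genes and 2000 bases to either side of them, away from the starts, 719 peaks gave 6580 tests, of which 109 were called (1.66%), 57 higher and 52 lower in D2, beside 1.39% higher and 1.33% lower over all peaks. Adcy2 had 37 of 675 (5.48%; 22 lower and 15 higher), in 21 peaks that were all intronic. Pde4d had 46 of 2030 (2.27%; 30 higher and 16 lower), and each of the other 8 genes had 7 or fewer. The 2 calls with the smallest adjusted p are shown with the centres of their peaks, CG dinucleotides in capitals, on the strand of the gene.
Adcy2 intragenic peak: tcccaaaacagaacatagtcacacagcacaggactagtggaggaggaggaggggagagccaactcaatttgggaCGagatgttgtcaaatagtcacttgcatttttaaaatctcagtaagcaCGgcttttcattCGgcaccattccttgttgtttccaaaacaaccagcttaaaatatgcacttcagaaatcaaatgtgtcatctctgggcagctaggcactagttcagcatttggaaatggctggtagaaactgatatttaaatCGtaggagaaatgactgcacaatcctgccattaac
Pde4d intragenic peak: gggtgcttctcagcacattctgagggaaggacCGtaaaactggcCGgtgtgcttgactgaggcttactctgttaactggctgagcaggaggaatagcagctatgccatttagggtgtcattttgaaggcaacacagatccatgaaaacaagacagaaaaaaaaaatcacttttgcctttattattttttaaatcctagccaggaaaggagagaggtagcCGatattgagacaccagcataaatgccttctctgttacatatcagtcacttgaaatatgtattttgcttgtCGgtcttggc
The first (chr13:68633761-68634060, - strand, GRCm38) is the centre of an intronic Adcy2 peak at chr13:68633476-68634347. In Exc-DG it was at 11.3 and 9.48 CPM in B6 and at 2.60 and 2.87 CPM in D2 (-1.92, SE 0.16, edgeR adjusted p = 4.84e-27), where 5.97% of peaks were called, and it was not called in the other 10 types tested. The Adcy2 transcript was not called in Exc-DG. The second (chr13:109750677-109750976, + strand) is the centre of an intronic Pde4d peak at chr13:109750545-109751110. It was at 0.517 and 0.854 CPM in B6 and at 4.55 and 4.99 CPM in D2 in Exc-CA1-Galntl6 (2.79, SE 0.30, edgeR adjusted p = 5.25e-18), and was higher in Exc-CA3 too (1.19, edgeR adjusted p = 0.0226). In both of these types the Pde4d transcript was called lower in D2. Both stretches held 4 CG dinucleotides, where 55.7% of peak centres had fewer.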

How the data were processed

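snRNA-seq and snATAC-seq were made from sorted nuclei of the ventral hippocampus of B6 and D2 males. The authors aligned B6 reads to mm10 and D2 reads to mm10 carrying D2 variants, with Cell Ranger 6.0.2 and Cell Ranger ATAC 2.0.0 per the submitters' processing notes, kept intronic reads, removed doublets, clustered nuclei in Seurat 4.0.5 and merged MACS peaks called per sample. The deposited values are raw counts per gene or peak, which the authors had summed per cell type and library, with the number of nuclei in each sum. Whether counting used strand, and whether peak starts count from 0 or 1, is not given in the sources used here. Columns carry library numbers that differ from those of the labels, so their strain is known and the sample within the strain is not, and only the strain was used.

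Of 33902 gene symbols, 8204 were counted only in D2, 960 only in B6 and 47 in neither, and these were left out, which kept 24691 symbols holding 99.2% (B6) and 96.4% (D2) of all counts. Each cell type was fitted with edgeR 4.0.16 (R 4.3.3) by filterByExpr, TMM scaling and the quasi-likelihood test, with Benjamini-Hochberg adjustment over all genes or peaks of the cell type and a threshold of 0.05. Peaks needed at least 10 counts. The SE was derived from the fold change and the F value. Variation among cell types was tested in 1 edgeR model over all 17 types with library terms. Starts and gene spans came from GENCODE vM21. Of the other pathway genes, the 6 called in the most cell types were named, with ties settled by the median absolute difference. The scripts were tested on simulated counts. Alternatives were DESeq2 1.42.0, RLE scaling, other filters, the symbols of 1 strain kept, a block for the library number, and leaving out each library. The genes and lists were chosen with earlier results of these data known. Methylation data were not used here.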

Additional observations from a re-analysis of the deposited data

Results flagged for a closer look

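For 9 of the 10 genes the difference between D2 and B6 was not the same in all 17 cell types, by a test of the variation itself (edgeR quasi-likelihood interaction test, adjusted over 18599 genes). The adjusted p was 2.68e-11 for Pde4d, which was higher in NN-ODC of D2 and lower in 7 neuronal types. It was 5.53e-09 for Pde10a, whose difference ranged from -0.09 to -1.78, and 6.67e-07 for Pde1a, which was higher in Exc-CA3, Exc-ENT and Inh-MGE and lower in NN-Astro and NN-ODC. It was 3.22e-06 for Adcy2, which was called lower in 6 neuronal types. It was 0.000805 for Adcy8, higher in NN-Astro and NN-MGC and lower in Exc-Gpc6 and Exc-CA1-Galntl6, and 0.00267 for Adcy5, called in NN-VLMC only. The values for Adcy1, Pde4b and Adcy9 were 0.00877, 0.0113 and 0.0331. Of these 9, Adcy9 was no longer called without any 1 of the 4 libraries (0.0501 to 0.774), and Pde4b was not called without B6 library 2 (0.0610), B6 library 3 (0.196) or D2 library 3 (0.0870). Adcy1 was not called without D2 library 2 (0.200) or D2 library 3 (0.0534), Adcy5 without D2 library 2 (0.176), and Adcy8 without D2 library 3 (0.0523). With only the cell types of at least 100 nuclei in every library, Adcy5 had an adjusted p of 0.650.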

How the results depend on the processing

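No call on the 10 genes or their promoter peaks changed direction under any alternative run. Of the 48 calls between the strains, 20 were kept under all alternatives. The count was 33 with DESeq2, 50 with RLE scaling, 53 with a filter of at least 1 count, 50 with the symbols of 1 strain kept, and 29 to 53 with 1 library left out, the lowest without D2 library 3. DESeq2 did not call Adcy1 in Exc-CA1-Galntl6, NN-Astro and NN-OPC, Adcy2 in Exc-Gpc6 and Inh-MGE, Adcy5 in NN-VLMC, Adcy8 in Exc-CA1-Galntl6, Exc-Gpc6 and NN-MGC, Pde1a in Exc-ENT and NN-ODC, Pde4b in Exc-CA1-Galntl6 and Exc-Gpc6, Pde4d in Inh-Lamp5 or Pde10a in NN-ODC. For the other pathway genes it was 103, 57 with DESeq2 and 77 to 110 with 1 library left out. For variation among cell types it was 9 of 10, and 5 to 7 with 1 library left out, 5 being without D2 library 3. For promoter peaks it was 2, 0 with DESeq2 (5 at an unadjusted p under 0.05) and 0 to 3 with 1 library left out. The causes were not tested.

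Correlations of same-numbered libraries' deviations lay between -0.12 and 0.06 over the 17 cell types. Whether libraries of the same number shared a batch cannot be told from 2 libraries per strain. A replicate block for the library number gave 49 calls on the 10 genes, 102 on the other pathway genes and 5 on the promoter peaks, and the calls of Adcy1 in NN-OPC (adjusted p = 0.0815), Adcy8 in Exc-Gpc6 (0.0751) and Pde4d in Inh-MGE (0.142) were not made. Depth limits the small cell types most: CR-CR of D2 held 45 and 46 nuclei.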
